A study of Arabidopsis thaliana with 97 samples.

Results

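Alpha-expansins are a family of small secreted proteins of the plant cell wall, and 10 of them were followed here: EXPA1 (AT1G69530), EXPA3 (AT2G37640), EXPA4 (AT2G39700), EXPA5 (AT3G29030), EXPA6 (AT2G28950), EXPA8 (AT2G40610), EXPA10 (AT1G26770), EXPA11 (AT1G20190), EXPA15 (AT2G03090) and EXPA16 (AT3G55500). The locus codes place EXPA1, EXPA10 and EXPA11 on chromosome 1, EXPA5 and EXPA16 on chromosome 3 and the rest on chromosome 2. All 10 were taken by locus from the 27878 sense loci of the tag tables as a list of named genes, with no threshold on a measured value. Tags had been counted by EXPRSS, a tag-sequencing method that reads 1 short strand-specific tag from the 3′ end of each transcript, in discs cut from the leaves of Arabidopsis thaliana plants aged 5 weeks. The npr1-1, jar1-1 and ein2-5 mutants and the Col-0 accession were each given 100 nM flg22 for 8, 15, 30, 45, 60, 120 or 180 min or water for 8 min, which gave 32 groups of 3 replicates and 96 libraries. flg22 is the flagellin peptide that the receptor FLS2 recognises. NPR1 is needed for responses to salicylic acid, JAR1 joins jasmonate to isoleucine, and EIN2 passes on the ethylene signal. Water was sampled at 8 min only, so that time in the dish and time in flg22 changed together after that point. The question put to the data was how these genes behaved under flg22 and in plants with an impaired hormone pathway.

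Expansins loosen the wall without cutting its polymers and act best at acid pH. In acid growth, plasma membrane proton pumps lower the pH of the wall, SAUR proteins keep the pumps active by blocking PP2C clade D phosphatases, and expansins let the wall extend under turgor. Alpha-expansins are best known from growing tissue, and EXPA1 is also known from guard cells, whose walls stretch and relax as stomata open and close.

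The libraries held 388691 to 2415393 tags (median 1376884.5), with 6.49 to 44.4% of them from organelle loci, and 1 tag was worth 0.414 to 2.57 CPM (tags per 1000000 tags). Levels are given as TPM, which here means CPM after TMM scaling and is not corrected for length, since each transcript gives 1 tag. By the deposited list of libraries sequenced together, every genotype and replicate number had its own lane, and Col-0 and npr1-1 were run apart from jar1-1 and ein2-5, so that genotype and lane cannot be told apart. Replicates are separate samples by their labels, and p-values measure the spread between such samples, which may be partly technical. The mutant alleles need not lower their own transcripts, so these check the labels only weakly: NPR1 had a median of 49.6 TPM in npr1-1 and 53.1 TPM in Col-0, JAR1 31.5 TPM in jar1-1 and 27.7 TPM in Col-0, and EIN2 3.59 TPM in ein2-5 and 12.2 TPM in Col-0. RBCS1A, a Rubisco subunit of leaf mesophyll, stood at 2320 to 15900 TPM in all 96 libraries, while the root hair markers COBL9, PRP3 and EXPA7 had 1, 1 and 3 tags in all.

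Of the 10 alpha-expansins, 3 carried nearly all the signal. The 96 libraries held 2334 of their tags, of which EXPA4 had 1058, EXPA1 747 and EXPA6 421. Together these 3 genes held 95.4% of the tags, and they were the 3 that passed the filter on low counts. Pooled over the libraries, EXPA4 had 8.20 CPM (95% exact Poisson interval 7.72 to 8.71), EXPA1 5.79 (5.38 to 6.22) and EXPA6 3.26 (2.96 to 3.59). These intervals do not overlap, and they cover counting error only. All 3 were low transcripts in this tissue: the mean level of EXPA4 lay above 34.5% of the 14569 sense genes tested, that of EXPA1 above 23.1% and that of EXPA6 above 9.45%. No sense value of any of the 10 genes was a fraction, so that none of their tags had been shared out between loci.

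The other 7 genes had 108 tags in all and at most 3 in any library. EXPA8 had 26, EXPA11 24, EXPA3 22 and EXPA10, which is known from the growth of leaves and pedicels, had 20. EXPA5, a gene known from brassinosteroid-dependent growth, had 10, and EXPA15 and EXPA16 had 3 each, or 0.0233 CPM (0.0048 to 0.068). In 1 library, 3 tags correspond to 1.24 to 7.72 CPM, so that changes in these genes were not detectable per library at this depth.

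**Figure D1:**
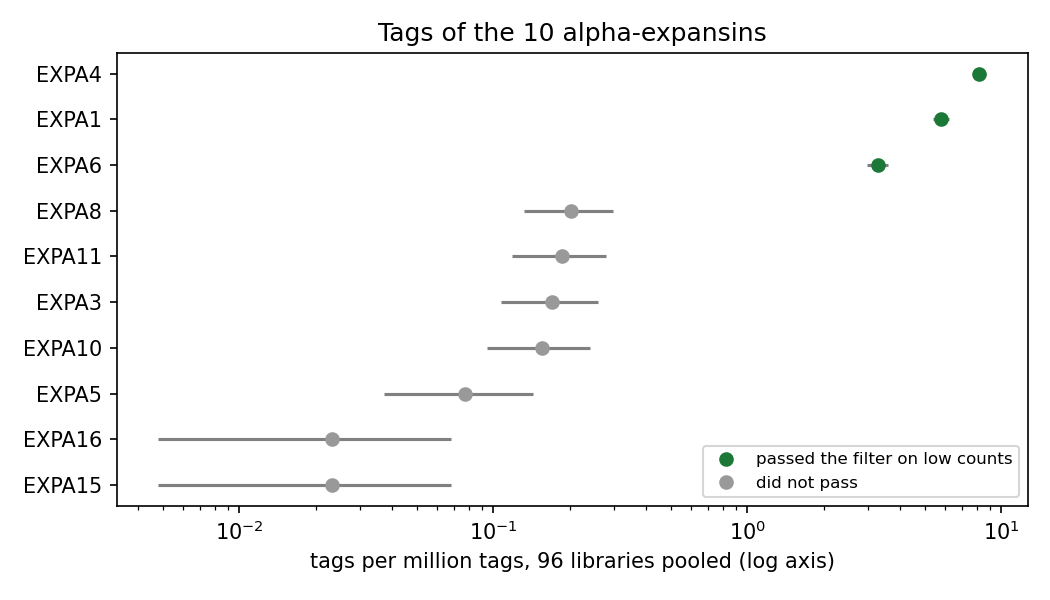
Tags per 1000000 tags of each of the 10 alpha-expansins with the 96 libraries pooled, on a log axis, with 95% exact Poisson intervals as horizontal bars (counting error only); green points passed the filter on low counts and grey points did not. EXPA4, EXPA1 and EXPA6 lie between 3.26 and 8.20, and the other 7 genes lie at or below 0.202.

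Of the 3 tested genes among the 10, only EXPA1 was called after flg22. In jar1-1 it fell at 6 of 7 times, from 15 to 180 min, and in Col-0 and npr1-1 it fell at 45 min. The decrease was deep where it was called: at 45 min EXPA1 averaged 1.14 ± 1.26 TPM in flg22 and 10.7 ± 1.13 TPM in water in Col-0 (SD, n = 3 each). In ein2-5 no time passed the test.

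In Col-0, EXPA1 had 10, 12 and 10.1 TPM in water and 10.5, 8.32 and 8.44 TPM after 8 min of flg22. It had 6.50, 0.693 and 6.69 TPM after 15 min, 3.51, 5.45 and 2.37 TPM after 30 min, and 0, 0.924 and 2.48 TPM at 45 min. All 9 libraries from 15 to 45 min thus lay below the 3 water libraries. Here and below, a lack of overlap between libraries is a description, and its share over all genes is not given. The times of a genotype also share the same 3 water libraries. EXPA1 then had 5.88, 3.47 and 5.88 TPM after 60 min, 5.75, 6.86 and 2.45 TPM after 120 min, and 5.85, 9.40 and 6.96 TPM after 180 min, still below water in each library. The change at 45 min was -3.20 ± 0.69 on the log2 scale (SE; edgeR quasi-likelihood test, two-sided, Benjamini-Hochberg adjusted p = 1.12e-04), where 12.6% of the sense genes tested were called lower. At the other times, in order, the lower share in Col-0 was 0%, 3.33%, 6.29%, 18.3%, 18.6% and 16.7%. Calls throughout were made at an adjusted p under 0.01. In pooled tags, 3 against 56 in water, the ratio of flg22 to water was 0.101 (95% exact interval 0.0202 to 0.311, counting error only). The 30 min change, -1.48, did not pass (adjusted p = 0.0256), but passed with DESeq2 (adjusted p = 0.00999) and with libraries scaled to total tags (0.00882). Without replicate 1 the 45 min call was lost (adjusted p = 0.013).

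In npr1-1, EXPA1 had 7.13, 4.64 and 15.1 TPM in water and 8.41, 5.07 and 9.71 TPM at 8 min. It had 3.20, 3.39 and 3.98 TPM after 15 min, 4.37, 3.86 and 2.06 TPM after 30 min, and 0.581, 3.62 and 0 TPM at 45 min. These 9 libraries again lay below the 3 in water, although the water libraries of npr1-1 were the most scattered of the 4 genotypes. The levels were 2.74, 6.23 and 6.24 TPM after 60 min, 8.62, 5.36 and 5.36 TPM after 120 min and 7.97, 8.91 and 5.60 TPM after 180 min, which overlapped the water libraries. At 45 min EXPA1 fell by 3.11 on the log2 scale (SE 0.699, edgeR adjusted p = 1.97e-04), with 12.1% of sense genes called lower. At the other times in npr1-1 the lower share was 0.00686%, 3.78%, 7.31%, 19.2%, 19.8% and 19.1%. The pooled tags were 3 in flg22 and 62 in water. That call was lost without replicate 1 (adjusted p = 0.0189) or replicate 3 (0.0626). The 30 min value, a log2 change of -1.37, missed the threshold (adjusted p = 0.029) and passed with DESeq2 (0.00965) and with total tags (0.00737).

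In jar1-1, EXPA1 had 10.9, 11.8 and 16.3 TPM in water and 10.3, 7.20 and 10.7 TPM at 8 min. It had 3.46, 2.20 and 0.939 TPM after 15 min, 0, 2.59 and 0 TPM after 30 min, and 2.18, 1.21 and 0 TPM at 45 min. EXPA1 was thus already low at 15 min. At that time the log2 change was also negative in Col-0 (-1.18), npr1-1 (-1.36) and ein2-5 (-0.993), though not called there. It had 1.60, 2.51 and 1.29 TPM after 60 min, 2.26, 0.994 and 5.31 TPM after 120 min, and 6.29, 2.12 and 2.72 TPM at 180 min. None of the 21 flg22 libraries reached the lowest water library. The log2 changes were -2.56, -4.00, -3.43, -2.83, -2.07 and -1.83 from 15 to 180 min, with adjusted p between 5.35e-07 and 2.38e-03 (edgeR). The shares of sense genes called lower in jar1-1 were 0% at 8 min and 3.78%, 7.61%, 13.2%, 19.9%, 20.2% and 20.0% from 15 to 180 min. At 30 min 3 tags were counted in flg22 and 91 in water, a ratio of 0.0528 (0.0107 to 0.159), and at 180 min 12 tags in flg22 and 91 in water, a ratio of 0.263 (0.131 to 0.482). The 15 min call was lost without replicate 3 (adjusted p = 0.0236), the 120 min call without replicate 1 (0.0191), and the 180 min call without replicate 3 (0.0652) or when only jar1-1 was fitted (0.0144).

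In ein2-5, EXPA1 had 7.15, 7.47 and 10 TPM in water and 2.57, 5.45 and 5.68 TPM at 8 min. It had 3.75, 4.21 and 4.61 TPM after 15 min, 5.58, 2.71 and 2.77 TPM after 30 min, and 3.68, 6.11 and 1.63 TPM at 45 min. These 12 flg22 libraries lay below the 3 in water, although no time was called. The levels were 2.98, 6.22 and 3.89 TPM after 60 min, 4.09, 10.6 and 5.76 TPM after 120 min and 8.08, 17.3 and 8.90 TPM at 180 min. Of 7 times in ein2-5, 2 had an unadjusted p under 0.05 and none an adjusted p under 0.01, with edgeR or with DESeq2, and the lowest adjusted p was 0.113. The shares of sense genes called lower in ein2-5 were also smaller, at 0%, 1.11%, 3.21%, 7.31%, 10.7%, 11.9% and 10.3% from 8 to 180 min. In pooled tags EXPA1 had 12 at 45 min and 42 in water, a ratio of 0.441 (0.211 to 0.853), and 43 at 180 min and 42 in water, a ratio of 1.33 (0.849 to 2.09).

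Over all 7 times, EXPA1 differed from water in jar1-1 (edgeR F-test, adjusted p = 3.99e-09), npr1-1 (1.31e-03) and Col-0 (1.42e-03), but not in ein2-5 (0.0286). Many sense genes were called by this test: 62.2% in jar1-1, 59.2% in npr1-1, 57.0% in Col-0 and 49.2% in ein2-5. The jar1-1 call held under all 11 alternatives run, whereas the Col-0 call was lost without replicate 1 (adjusted p = 0.0817) or 2 (0.0209), and the npr1-1 call without replicate 1 (0.0936) or 3 (0.151). The 7 times of a genotype share the same 3 water libraries and are not separate evidence.

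A call in one genotype and none in another is no difference between them, and the difference itself did not pass. The interaction of mutant and flg22 had an adjusted p of 1 for EXPA1 in npr1-1 and in jar1-1 and of 0.837 in ein2-5 (edgeR). For jar1-1 the 7 interaction terms were all negative, from -2.52 to -0.233 on the log2 scale (median -1.30), with an unadjusted p of 0.0681. Of 9 interaction tests on the 3 genes, 0 were called by edgeR or DESeq2, and 0 reached an unadjusted p under 0.05. Few genes of any kind passed this test: 0% of sense genes for npr1-1, 0% for jar1-1 and 1.49% for ein2-5. The levels of EXPA1 in water gave log2 differences from Col-0 of -0.215 for npr1-1, 0.287 for jar1-1 and -0.379 for ein2-5, and none was called; 0.0686%, 0.0412% and 7.49% of sense genes were. Over the 7 flg22 times EXPA1 did not pass against Col-0 either, with adjusted p of 1 for npr1-1, 0.15 for jar1-1 and 0.444 for ein2-5. Of all sense genes 0.604%, 1.08% and 17.1% passed these comparisons.

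Guard cell markers were read beside EXPA1 because the gene is known from those cells. The summed level of MYB60, KAT1 and GC1 at 45 min in Col-0 was 13 TPM in flg22 (1.24 to 23.8) and 19.9 TPM in water (15 to 25.8), and at 30 min in jar1-1 it was 4.45 TPM in flg22 (3.46 to 5.91) and 12 TPM in water (10.8 to 12.7). KAT1 and GC1 passed the filter, with log2 changes of -0.612 and -0.37 at 45 min in Col-0 and -1.22 and -1.26 at 30 min in jar1-1 (lowest adjusted p = 0.188), and their part in the EXPA1 result was not tested. In whole discs, fewer cells of a type and less RNA per cell cannot be told apart.

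**Figure D2:**
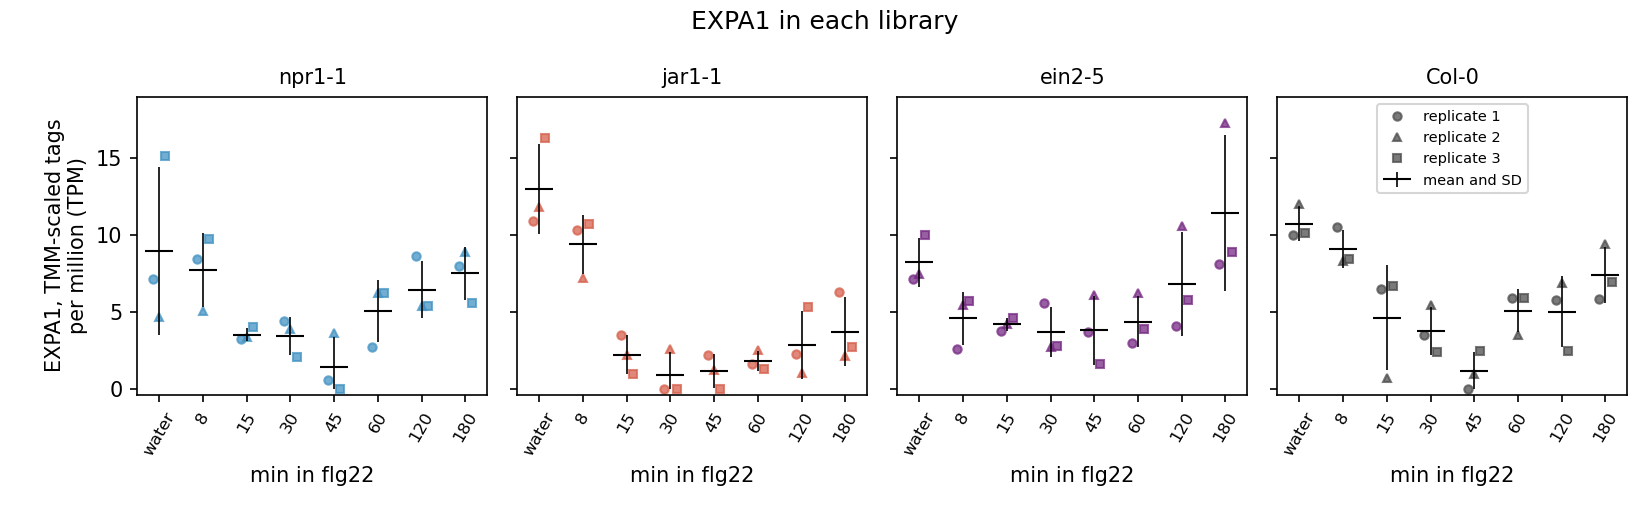
EXPA1 level (TPM) by condition, water and then 8 to 180 min of flg22, in npr1-1, jar1-1, ein2-5 and Col-0; points are single libraries, and marks with bars are the mean and SD of 3 replicates, with bars stopped at 0. The Col-0 mean was 1.14 at 45 min and 10.7 in water, and the 21 jar1-1 flg22 libraries all lay below those in water.

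EXPA4 and EXPA6 did not pass the flg22 test in any genotype. EXPA4 was higher in ein2-5 than in Col-0 after flg22, at a median of 18.4 TPM in ein2-5 and 2.77 TPM in Col-0 (21 flg22 libraries each). EXPA6 had a median of 4.85 TPM in ein2-5 and 1.58 TPM in Col-0, but it was kept for testing only by its ein2-5 level, so that this difference is given as a description.

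In ein2-5, EXPA4 had 27.4, 17.4 and 9.46 TPM in water, 24.0, 30.9 and 13.2 TPM after 8 min, 22.5, 18.4 and 9.22 TPM after 15 min and 23.6, 21.6 and 23.5 TPM at 30 min. It had 23.9, 28.5 and 13.9 TPM after 45 min, 24.6, 16.3 and 11.7 TPM after 60 min, 21.3, 13.2 and 3.46 TPM after 120 min and 15.3, 11.8 and 9.54 TPM at 180 min. Replicate 3 was the lowest in 7 of 8 conditions. In Col-0 it had 6.02, 4.01 and 6.75 TPM in water, 6.13, 7.39 and 0.938 TPM after 8 min, 8.66, 4.16 and 2.97 TPM after 15 min and 9.66, 2.33 and 5.53 TPM at 30 min. It had 10.2, 2.77 and 4.97 TPM after 45 min, 1.68, 4.34 and 1.68 TPM after 60 min, 2.30, 0 and 2.45 TPM after 120 min and 1.95, 0 and 1.16 TPM at 180 min. At each of the 8 conditions every ein2-5 library lay above every Col-0 library. In the flg22 libraries of the other 2 mutants EXPA4 had a median of 3.06 TPM in npr1-1 (0 to 13.9) and 4.96 TPM in jar1-1 (1.05 to 17.6), against 2.77 TPM in Col-0 (0 to 10.2).

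Over the 7 flg22 times EXPA4 differed between ein2-5 and Col-0 with an adjusted p of 5.65e-07 (edgeR F-test), in a comparison where 17.1% of sense genes were called. The 7 differences ran from 1.70 to 3.42 on the log2 scale (median 2.19), higher in ein2-5 at 7 of 7 times. These times came from the same 3 lanes in each genotype. They are not separate evidence, here or in the comparisons of ein2-5 with Col-0 below. The edgeR fit took libraries of a lane as independent. The call held under all 11 alternatives run, among them limma-voom with lane as a random term, with adjusted p from 3.04e-22 to 0.00464. In water the difference was 1.68 ± 0.633 (SE), and it did not pass (adjusted p = 0.076) although the libraries did not overlap. There 7.49% of sense genes were called, and without the filter on low counts EXPA4 was called too (adjusted p = 0.0094). The interaction had an adjusted p of 1. The lanes of EXPA4 differed within a genotype: replicates 1, 2 and 3 averaged 22.8, 19.8 and 11.7 TPM in ein2-5 and 5.82, 3.13 and 3.31 TPM in Col-0. The lowest ein2-5 lane was above the highest Col-0 lane. The lanes of jar1-1, which like ein2-5 was run apart from Col-0, averaged 7.90, 4.38 and 4.96 TPM, and genotype and run cannot be told apart.

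flg22 gave no call for EXPA4 at any time. Of 28 tests over 4 genotypes and 7 times 2 reached an unadjusted p under 0.05, and none passed with DESeq2 either. The largest fitted decrease was at 180 min in Col-0, a log2 change of -2.31 ± 1.07 (SE, adjusted p = 0.0749), where the 3 libraries together held 3 tags. Over 7 times the adjusted p was 0.47 in npr1-1, 0.282 in jar1-1, 0.72 in ein2-5 and 0.258 in Col-0.

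EXPA6 was the least abundant of the 3, and it passed the filter on low counts only in fits that held ein2-5, the genotype where it was highest. In ein2-5 it had 7.75, 9.33 and 10 TPM in water, 2.57, 11.8 and 6.94 TPM after 8 min, 6.25, 5.26 and 4.61 TPM after 15 min, 4.34, 7.22 and 6.91 TPM after 30 min and 4.60, 6.11 and 11.4 TPM at 45 min. It had 5.21, 1.56 and 3.11 TPM after 60 min, 2.46, 4.40 and 3.46 TPM after 120 min and 4.85, 0.910 and 5.72 TPM at 180 min. The lowest library at each of the last 3 times (1.56, 2.46 and 0.910 TPM) lay below every earlier ein2-5 library. Other libraries of these times overlapped the earlier ones. In Col-0 it had 4.01, 4.01 and 1.35 TPM in water, 0, 0.924 and 0 TPM after 8 min, 2.17, 1.39 and 2.23 TPM after 15 min and 2.64, 5.45 and 1.58 TPM at 30 min. It had 0, 2.77 and 6.21 TPM after 45 min, 1.68, 1.74 and 3.36 TPM after 60 min, 0, 2.29 and 1.22 TPM after 120 min and 0, 1.04 and 1.16 TPM at 180 min. In water and at 8, 15 and 120 min every ein2-5 library lay above every Col-0 library, the groups overlapped at the other times, and 5 of 21 Col-0 flg22 libraries had no tag. The flg22 medians of EXPA6 were 1.64 TPM in npr1-1 (0 to 5.40) and 2.98 TPM in jar1-1 (0 to 6.54).

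Over the 7 flg22 times the fitted log2 differences of EXPA6 between ein2-5 and Col-0 were 0.531 to 4.17 (median 1.47), and in water the difference was 1.47 ± 0.611 (SE). The filter had kept a gene that is high in ein2-5, so the p of the F-test (adjusted p = 1.33e-03, edgeR) is not read as support for a difference. It also rose past 0.01 without replicate 1 (0.0573), 2 (0.0177) or 3 (0.153) and in a limma-voom fit with the lane as a random term (0.0888). The interaction had an adjusted p of 0.949. flg22 gave no call for EXPA6, since 4 of 28 tests had an unadjusted p under 0.05 and none passed, with edgeR or DESeq2. The largest fitted change was -3.05 ± 1.11 at 8 min in Col-0 (adjusted p = 0.227), where 1 of 3 libraries held a tag. Across the 32 group means, EXPA4 and EXPA6 had a correlation of 0.779, EXPA1 and EXPA4 of -0.0257 and EXPA1 and EXPA6 of -0.0908; these points share libraries, lanes and depth, and the values are a description.

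Some markers of leaf cell types moved with ein2-5 as well. Of 17 markers 10 were tested, and 3 were called between ein2-5 and Col-0 over the 7 flg22 times, where 17.1% of sense genes were. FDH, an epidermal gene, was higher in ein2-5 at 7 of 7 times (log2 differences of 0.589 to 1.32, edgeR adjusted p = 2.8e-04), as were CA1, a carbonic anhydrase of mesophyll (1.54 to 1.99, 2.28e-06), and LHCB1.3, a light-harvesting protein (1.10 to 2.49, 9.4e-03). Their values were not whole in 95 libraries for FDH, 64 for CA1 and 94 for LHCB1.3. Part of their tags had thus been shared out between loci, and these levels are not of those genes alone. RBCS1A, ATML1, KAT1, GC1, SUC2, AHA3 and XCP2 did not pass (adjusted p = 0.294 to 0.905).

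The summed level of the 3 epidermal markers in flg22 libraries was 21.3 to 54.2 TPM in ein2-5 (median 31.7) and 11.4 to 30.2 TPM in Col-0 (median 17.6), with PDF1 near 0 at 2 tags in all. Over all libraries FDH had a median of 20.1 TPM and ATML1 of 3.94 TPM, so this sum rested mainly on FDH and its shared tags. The summed level of the 3 mesophyll markers was 3596 to 18490 TPM in ein2-5 (median 10933) and 2425 to 13333 TPM in Col-0 (median 8780). The other leaf lists had closer medians: guard cell markers 10.3 TPM in ein2-5 (2.42 to 23.5) and 11.9 TPM in Col-0 (0 to 23.8), phloem markers 80.1 TPM in ein2-5 (48.3 to 136) and 85 TPM in Col-0 (23.3 to 128), and xylem markers 2.77 TPM in ein2-5 (0.576 to 8.17) and 2.37 TPM in Col-0 (0 to 5.27). The part of the markers in the EXPA4 and EXPA6 levels was not tested.

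**Figure D3:**
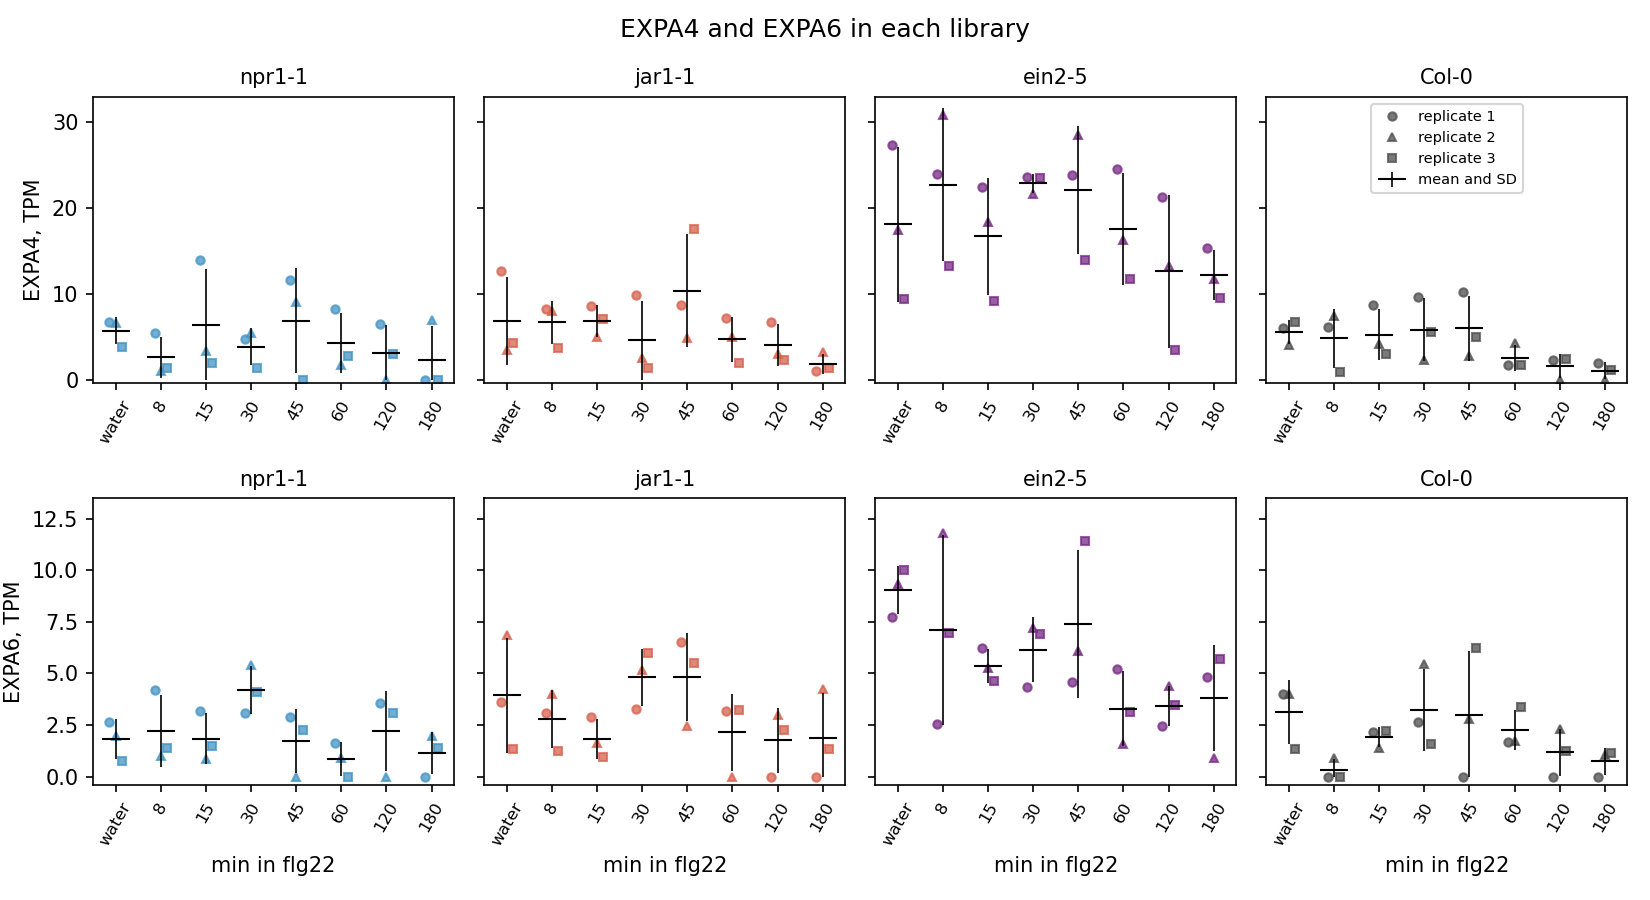
EXPA4 (upper row) and EXPA6 (lower row) levels in TPM by condition, water and then 8 to 180 min of flg22, in npr1-1, jar1-1, ein2-5 and Col-0; points are single libraries and marks with bars are the mean and SD of 3 replicates, with bars stopped at 0. The ein2-5 panels reach the highest levels, with a flg22 median of 18.4 TPM for EXPA4 and 4.85 TPM for EXPA6, against 2.77 and 1.58 TPM in Col-0.

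The 7 sparse genes can be described only by pooled tags, without a test. Summed over the 12 libraries of a condition, they had 27 tags in water and 19, 20, 10, 7, 8, 9 and 8 tags from 8 to 180 min of flg22. This was 1.33 CPM in water (95% exact Poisson interval 0.878 to 1.94), 1.53 CPM at 8 min and 0.543 CPM at 30 min. The genes did not share one course: EXPA11 had 7, 7, 3, 3, 2, 2, 0 and 0 tags from water to 180 min and EXPA3 had 6, 6, 5, 2, 1, 1, 1 and 0, while EXPA8 had 2, 2, 4, 2, 2, 3, 5 and 6. Of the EXPA8 tags, 5 came from npr1-1 at 180 min. EXPA10 had 4, 3, 6, 2, 1, 1, 1 and 2 tags and EXPA5 had 5, 0, 1, 1, 0, 1, 2 and 0. By genotype, EXPA11 had 6 tags in npr1-1, 7 in jar1-1, 10 in ein2-5 and 1 in Col-0, and EXPA8 had 10 in npr1-1, 1 in jar1-1, 8 in ein2-5 and 7 in Col-0.

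Between 60 and 180 min none of EXPA1, EXPA4 and EXPA6 moved past the test. Of 12 tests of 180 against 60 min in 4 genotypes, 0 were called by edgeR or DESeq2 and 1 had an unadjusted p under 0.05. The shares of sense genes called were 17.2% in npr1-1, 19.5% in jar1-1, 15.8% in ein2-5 and 17.5% in Col-0. The test with the lowest p was EXPA1 in ein2-5, with a log2 difference of 1.35 (adjusted p = 0.0444).

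Among the other expansins, EXPA2 rose after flg22 while EXPA1 fell. EXPA2, known from seed germination, was 1 of 2 genes tested among the 16 alpha-expansins outside the 10. It had no tag in water in npr1-1, jar1-1 or Col-0 and 1 tag in ein2-5. In Col-0 it had 8.12, 9.71 and 5.94 TPM after 15 min, 22.8, 9.34 and 13.4 TPM after 30 min and 9.06, 3.69 and 1.24 TPM after 45 min, so that every library at these times was above water. EXPA2 was called higher at 15, 30 and 45 min in npr1-1, where 10.3%, 12.1% and 16.7% of sense genes were, in jar1-1 (11.4%, 12.3% and 17.4%) and in Col-0 (10.2%, 11.3% and 16.3%). With so few tags in water, EXPA2 passed the filter on low counts only through its flg22 libraries. Its calls and adjusted p are thus given as a description and are not read as support. At 30 min it was at least 19.7-fold higher in npr1-1, 16-fold in jar1-1 and 25.9-fold in Col-0, taking 3 tags over the water group as the floor. In ein2-5 the tags were 19 at 30 min and 1 in water, a ratio of 23.2 (3.68 to 963), and only the F-test over 7 times passed (adjusted p = 5.97e-03); the ein2-5 interaction did not (0.929). The 30 min calls in npr1-1 and Col-0 held with each replicate number left out, whereas the other 7 calls were each lost without at least 1 of them (adjusted p = 0.0106 to 0.218), as was the ein2-5 F-test (0.0278 to 0.201).

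For the remaining tested expansins, the single-time calls given here were at 120 or 180 min. EXLA1, an expansin-like gene whose wall activity is not established, fell at 120 min in jar1-1 (log2 change -2.98, edgeR adjusted p = 8.04e-04), ein2-5 (-2.44, 9.53e-04) and Col-0 (-3.14, 7.36e-03). Earlier, at 15 min, EXLA1 averaged 12.4 TPM in npr1-1, 29.5 in jar1-1, 43.9 in ein2-5 and 15.3 in Col-0. In water, in the same order, it averaged 10.3, 13.25, 21.8 and 7.53 TPM. Like EXPA4 it was higher in ein2-5 than in Col-0 over the 7 flg22 times (adjusted p = 8.21e-06, log2 differences of 0.619 to 2.26), a call lost without replicate 2 (0.0211). EXPB1, a beta-expansin, rose at 120 min in npr1-1 (2.79, adjusted p = 1.43e-03) and Col-0 (2.75, 4.63e-03), where 19.1% and 18.8% of sense genes were called higher. EXPB1 passed the filter on low counts only through flg22 libraries, so its calls are a description and are not read as support. EXLB1 fell at 120 min in npr1-1 (-3.20, 3.07e-03) and EXPA9 at 180 min in npr1-1 (-2.40, 9.83e-03). Each of these 120 and 180 min calls was lost when at least 1 replicate number was left out, with adjusted p between 0.0187 and 0.116. EXPA13 had 303 tags in 89 libraries without passing the filter, and EXPA17, EXPA18, EXPA24, EXPA25 and EXPA26 had 0 tags.

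**Figure D4:**
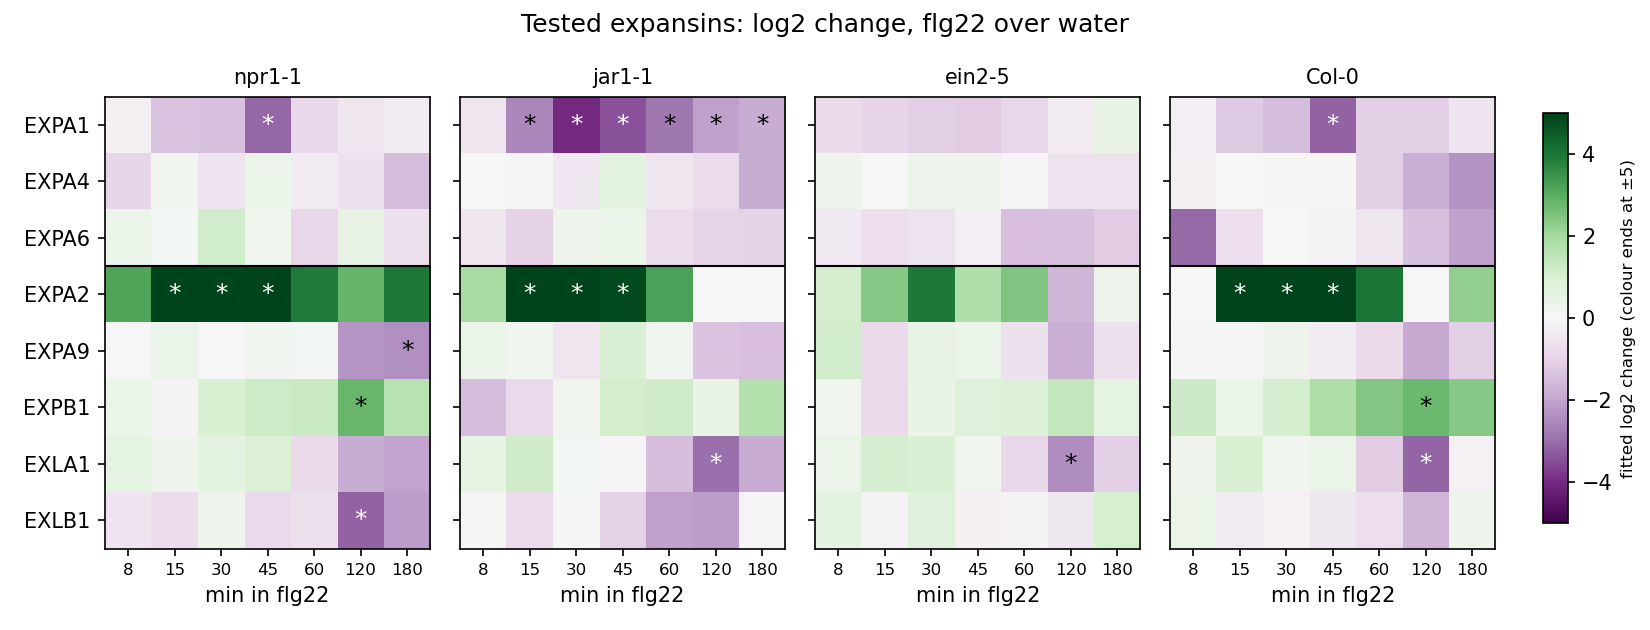
Fitted log2 change of flg22 over water for the 8 tested expansins at 7 times in npr1-1, jar1-1, ein2-5 and Col-0, the 3 alpha-expansins described above the line and 5 other expansins below it; an asterisk marks an adjusted p under 0.01 and colours end at 5 either way. Values of EXPA2 are fitted against water groups with 0 or 1 tag and are no measure of its fold. EXPA2 and EXPB1 passed the filter on low counts only through flg22 libraries, so their asterisks are a description. EXPA1 is marked lower at 1, 6 and 1 times in npr1-1, jar1-1 and Col-0, and EXPA2 higher at 3 times in each of these genotypes.

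Genes that act with expansins in acid growth were read at 60 min in Col-0, where 18.9% of sense genes were called higher and 18.3% lower and the median log2 change of sense genes was -0.143. The lists were chosen with earlier results of these data known, so counts of calls in them are a description. Of 11 plasma membrane proton pumps 6 were tested and 2 fell. AHA1, the main pump of leaves together with AHA2, averaged 197 ± 46.4 TPM in flg22 and 359 ± 23.9 TPM in water (SD, n = 3 each, edgeR adjusted p = 2.05e-03), and AHA11 had a log2 change of -1.79 (1.35e-03). Neither was called without replicate 1 (adjusted p = 0.0172 for AHA1 and 0.0268 for AHA11) or replicate 2 (0.0334 and 0.0191), and AHA1 was also lost without replicate 3 (0.0152) and without the filter (0.0613). All 9 PP2C clade D phosphatases were tested and 3 rose: PP2C-D8 (log2 change 2.22), PP2C-D4 (1.90) and PP2C-D2 (1.71). None of the 6 SAUR19 subfamily genes passed the filter.

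Of 9 genes of cellulose synthesis in the primary wall 8 were tested and 2 fell, COB, which sets the orientation of growth, and KOR1, an endoglucanase, both with a log2 change of -1.27. That count was 7 with total tags, and 1 without replicate 1 or 2, when COB was lost (adjusted p = 0.0139 and 0.0259). Of 12 growth transcription factors 7 were tested and 5 fell, with a median log2 change of -3.84 over the 7. This list too was chosen with earlier results known, and its count is not read as support. BEE3 (-4.86), HBI1 (-4.39) and BZR1 (-4.37), factors of brassinosteroid and growth programmes, led them. HBI1 averaged 0.56 ± 0.485 TPM in flg22 and 13.7 ± 5.02 TPM in water (SD, n = 3 each), with 2 tags in flg22 and 72 in water. At the same time EXPA1, EXPA4 and EXPA6 were not called in Col-0. Their log2 changes were -1.06, -1.10 and -0.484, with edgeR adjusted p of 0.0715, 0.295 and 0.629.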

How the data were processed

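Leaf discs of the 32 groups were profiled by EXPRSS tag-seq. The authors sorted reads by barcode, aligned them with Bowtie 0.12.8 to TAIR10 (per the labels) and deposited expected counts of tags per sense and antisense locus, tags that matched several loci being shared out. 12.0 to 18.4% of a library's nonzero values were not whole, and counts were rounded, which changed library totals by -0.0506 to -0.0122%. 1 sample of unassigned reads was not used.

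Counts were tested with edgeR 4.0.16 (R 4.3.3): TMM scaling, filterByExpr by group, a quasi-likelihood fit over all 96 libraries and 32 group means, and Benjamini-Hochberg adjustment over the 16816 sense and antisense loci tested, with calls at an adjusted p under 0.01. The study's own tool was not run. An SE is the log2 change divided by the root of F. Alternatives used DESeq2 1.42.0, limma 3.58.1 (voom with lane as random term), other scalings, no filter, fewer genotypes, left-out replicates and a lane block. A fit without 4 libraries under 800000 tags was chosen after seeing the data. Tests were tried on simulated data. The 96 replicate pairs differed by more than sampling noise.

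By the deposited lane list, the replicate numbers mark shared lanes within a genotype. Libraries of 1 lane deviated together (mean correlation 0.379 over 336 pairs, lane means 0.19 to 0.574). The mean for other lanes of a genotype was -0.189. Deviations from a mean of 3 replicates cancel out, so that value is no separate contrast. A fixed lane block changed no flg22 or interaction call of an alpha-expansin. Lanes are nested in genotype, so mutants and Col-0 were compared with lane as a random term, which lost EXPA6 in ein2-5 (adjusted p = 0.0888).

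Members and gene lists were chosen with earlier results of these data known. All 10 members are named, with the targeted genes, the called genes of each list with the largest changes at 60 min in Col-0, and the genes most alike. Symbols follow RefSeq (TAIR10.1) where it gave one, for 89 of 101 listed loci.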

Additional observations from a re-analysis of the deposited data

How the results depend on the processing

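At single times, calls numbered 8 of 84 tests on EXPA1, EXPA4 and EXPA6 by edgeR, all 8 of them EXPA1. In the same 28 comparisons 0 to 20.2% of sense genes were called lower. Over the alternatives the count was 10 with DESeq2 or total tags, 7 with only the genotypes compared, and 5 to 8 with 1 replicate number left out. Calls over all 7 times numbered 3 of 12 tests, where 49.2 to 62.2% of sense genes were called in a genotype. They numbered 1 to 2 with a replicate number left out. Adjusted p under 0.01 for a mutant against Col-0 over 7 times numbered 2 (EXPA4, and EXPA6, which is not read as a difference), and 1 with limma-voom and without any 1 of the replicate numbers. In water there were 0, and 1 without the filter, EXPA4 in ein2-5. Interactions and 180 against 60 min gave 0 calls under each alternative. With the replicate block the counts were 8 and 3 and no flg22 call of an alpha-expansin changed, while at 60 min in Col-0 it gave 5 cellulose synthesis calls and 1 among beta-expansins and expansin-like genes, against 2 and 0 without it. Leaving out 4 shallow libraries changed no count of member calls. Uncalled log2 changes turned sign when a replicate number was left out: EXPA1 in npr1-1 ranged from -0.877 to 0.184 at 120 min and from -0.856 to 0.388 at 180 min, EXPA1 in ein2-5 at 180 min from -0.0678 to 0.755, and EXPA6 in npr1-1 at 180 min from -1.40 to 0.419. The causes were not tested. Scaling by total tags moved the median log2 change of all genes by -0.581 to 0.245, DESeq2 size factors by -0.22 to 0.0391 and leaving out organelle loci by -0.252 to 0.0638. Few tags limit every value: 3 tags equal 1.24 to 7.72 CPM in 1 library.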

Other observations

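The genes whose level over the 32 groups most resembled the mean standardised level of EXPA1, EXPA4 and EXPA6 were AT4G10060 (Pearson r of log2 group means 0.891), AT1G28400 (0.89), AT5G11410 (0.886), AT1G17610 (0.88) and CT-BMY, a chloroplast beta-amylase that breaks down starch (0.871), out of 14561 genes. They followed EXPA4 and EXPA6 more closely than EXPA1: the r of CT-BMY was 0.818 with EXPA4, 0.712 with EXPA6 and 0.283 with EXPA1. These points share libraries and lanes, and the values are a description.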
